A study of Mus musculus with 5 samples.

Results

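The genes described here are 10 transcripts that mark the macrophages of the brain's borders: the endocytic receptors Mrc1, Stab1, Cd163, Lyve1, Siglec1 and Msr1, the endocytic adaptor Dab2, the enzyme Cbr2, and Pf4 and F13a1, whose products are released. They were taken by symbol, as 10 of the 52542 gene rows in the tables of unique molecular identifiers (UMIs, 1 per captured mRNA molecule), and followed in the cells with at least 500 UMIs, 825 of the 1900 wells that held a cell. Each was measured in 3 ways: its level, as UMIs per 10000 UMIs of the cells summed; the cells in which it was detected together with another of the 10; and its level in cells with low or high MHC class II. A cell was called high when Cd74, H2-Aa, H2-Ab1 and H2-Eb1 together gave at least 150 UMIs per 10000, which held for 390 cells, and low otherwise, which held for 435. Between 75 and 300 per 10000 lay 124 cells, 45 of them just below the limit and 79 at or above it.

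Cells gated as CD45highCD11bhigh were sorted from brains of DM-hTAU mice, which express mutated human tau under the natural tau promoter, at 9 months of age, and profiled by MARS-seq, a plate-based method that counts the 3′ ends of mRNAs. All 5 libraries, AB5863, AB5864, AB5865, AB5867 and AB5876, carry the label aPDL1 (an antibody against PD-L1), so no treatment was compared, although the text of the study also speaks of cells from mice given IgG2b. The labels describe a preparation from thymus and small intestine beside the tissue brain, and no source used here ties a library to a mouse. The spread between libraries, on which the p-values rest, may therefore be technical. With 2 libraries the p-values rest mainly on a spread shared between genes. The kept cells numbered 68, 87, 285, 71 and 314 in that order, with a median of 1015 UMIs per cell. Libraries AB5863, AB5864 and AB5867 stood apart by depth, with medians of 651 to 759 UMIs per cell against 1168 and 1267.5 in AB5865 and AB5876, and the results that rest on them are given with and without them. The plates shared the same 384 cell barcodes under 5 pool barcodes, with 1920 distinct pairs. Microglia markers, among them P2ry12 and Tmem119, passed 100 UMIs per 10000 in 243 cells, and the neutrophil markers S100a8 and S100a9 passed 500 in 30. Microglia markers lay between 50 and 200 in 282 cells, so that class is a range of values and not a separate set. Pf4 is also a gene of platelets and Lyve1 of lymphatic endothelium: of 4 platelet markers, Ppbp, Itga2b and Gp1bb were at 0 in the kept cells and Gp9 had 12 UMIs in high and 10 in low cells. Of 4 lymphatic markers, Pdpn, Flt4 and Ccl21a were at 0, and Prox1 had 3 UMIs in high and 2 in low cells, all 5 of them in cells with at least 2 of the 10 genes.

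Border macrophages lie in the meninges, the choroid plexus and the spaces around blood vessels, outside the parenchyma that microglia occupy. They are known for constant uptake of material from the fluid around them, through scavenger receptors and lectins that are carried inward by clathrin-coated vesicles. They are commonly divided into cells rich in LYVE1 and poor in MHC class II, often found along vessels, and cells rich in MHC class II, which present antigen. Since each molecule is counted once at its 3′ end, levels of different genes are set side by side here without a correction for length.

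Promoter windows of 7 of the 10 genes were available from RefSeq (GRCm38.p6), with 9 entries in all because Dab2 and F13a1 have 2 starts each; none was at hand for Lyve1, Siglec1 and Msr1. Shown are the 250 bases before the start of 3 genes whose windows hold the core of the site of PU.1, a transcription factor of macrophages, and of 1 receptor whose window holds none, each 5′ to 3′ on the strand of the gene. Capitals mark the PU.1 core (GAGGAA, or TTCCTC on the other strand) and, in Stab1, also the half-site of MAF factors (TGCTGA, or TCAGCA on the other strand). They lie at chr2:14229164-14229413 (Mrc1, plus strand), chr14:31168642-31168891 (Stab1, minus strand), chr5:90772185-90772434 (Pf4, plus strand) and chr6:124304401-124304650 (Cd163, plus strand). The starts used here are those of RefSeq and can differ from the gene positions given below. The Mrc1 window runs past the gene start given there, chr2:14229392.
Mrc1: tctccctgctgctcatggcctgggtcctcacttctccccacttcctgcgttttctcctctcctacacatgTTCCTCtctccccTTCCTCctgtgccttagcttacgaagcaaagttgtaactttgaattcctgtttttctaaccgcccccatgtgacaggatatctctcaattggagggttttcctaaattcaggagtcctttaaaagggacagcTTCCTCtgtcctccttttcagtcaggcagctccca
Stab1: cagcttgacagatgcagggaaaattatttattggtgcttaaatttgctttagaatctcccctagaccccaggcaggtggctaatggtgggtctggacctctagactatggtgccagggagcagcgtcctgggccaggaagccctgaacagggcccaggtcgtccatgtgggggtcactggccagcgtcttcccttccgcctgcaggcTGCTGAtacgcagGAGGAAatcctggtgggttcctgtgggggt
Pf4: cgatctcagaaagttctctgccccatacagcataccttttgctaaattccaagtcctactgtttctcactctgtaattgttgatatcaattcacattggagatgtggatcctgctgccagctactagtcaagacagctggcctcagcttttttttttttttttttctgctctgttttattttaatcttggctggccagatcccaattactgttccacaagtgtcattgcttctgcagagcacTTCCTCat
Cd163: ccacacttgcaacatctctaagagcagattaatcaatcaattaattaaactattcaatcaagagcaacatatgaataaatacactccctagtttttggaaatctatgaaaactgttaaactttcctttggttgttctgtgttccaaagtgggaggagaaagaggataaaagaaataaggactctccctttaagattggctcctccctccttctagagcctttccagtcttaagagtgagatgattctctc
The PU.1 core was present in 7 of the 9 entries, and in 23.4% of 32536 windows of the same length. In Mrc1 it occurred 3 times, 180, 167 and 35 bases before the start; in Stab1 it lay 30 bases and in Pf4 8 bases before it. The MAF half-site was present in Stab1 and in 1 entry of Dab2, and in 16.1% of all windows. AP-1 sites (TGACTCA), the E-box CACGTG and TATAAA, on both strands, were in none of the 9 entries, and in 4.45, 6.04 and 12.3% of all windows. These are letter matches in short windows and carry no measure of binding.

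Mrc1 (chr2:14229392-14332057, plus strand, 30 exons), the mannose receptor CD206, gave the most UMIs of the 10 in the kept cells, 559 in 248 of the 825. Positions of the genes are on GRCm38 and their exons those of the annotated transcript. Its level was 1.68, 2.17, 6.06, 3.85 and 4.91 UMIs per 10000 in AB5863, AB5864, AB5865, AB5867 and AB5876, a mean of 3.73 ± 1.84 (SD, n = 5). Stab1 (chr14:31139013-31168641, minus strand, 69 exons), stabilin-1, a scavenger receptor that takes up modified lipoproteins and matrix proteins, followed with 332 UMIs in 153 cells. Its levels were 1.86, 1.15, 3.78, 1.28 and 2.81 in the same order. Both receptors were found in each library and were highest in AB5865.

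The other receptors were rarer. Cd163 (chr6:124304656-124330527, plus strand, 17 exons), the receptor for haemoglobin bound to haptoglobin, gave 124 UMIs in 75 cells, at 0.372, 0.383, 1.36, 0.550 and 1.12 per 10000. Siglec1 (chr2:131069220-131086765, minus strand, 21 exons), sialoadhesin, a lectin for sialic acids, also gave 124 UMIs, in 76 cells, at 0, 0.511, 1.79, 0 and 0.862. Msr1 (chr8:39581685-39642673, minus strand, 10 exons), the class A scavenger receptor for modified low-density lipoprotein, gave 78 UMIs in 48 cells, at 0.372, 0.128, 1.02, 0.367 and 0.581. Lyve1 (chr7:110850607-110863239, minus strand, 6 exons), a receptor for hyaluronan, gave 75 UMIs in 32 cells, all of them in AB5865 (0.849 per 10000) and AB5876 (0.750). In AB5863, AB5864 and AB5867 it was not detected, which at 3 counts allows up to 0.559, 0.383 and 0.550 per 10000, limits below the levels seen in the deeper libraries.

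Dab2 (chr15:6299788-6440712, plus strand, 15 exons), an adaptor that brings receptors of the LDL receptor family into clathrin-coated pits, gave 250 UMIs in 140 cells, at 0.931, 1.40, 2.62, 1.10 and 2.25 per 10000 in the order of the libraries. Cbr2 (chr11:120729489-120732114, minus strand, 8 exons), a carbonyl reductase, gave 96 UMIs in 56 cells, at 0.372, 0, 0.994, 0.550 and 0.937. Pf4 (chr5:90772435-90773383, plus strand, 3 exons), the chemokine CXCL4, gave 183 UMIs in 94 cells, at 0, 0.894, 1.77, 2.38 and 1.69. F13a1 (chr13:36867178-37050244, minus strand, 15 exons), the catalytic subunit of coagulation factor XIII, a transglutaminase that cross-links fibrin, gave 218 UMIs in 101 cells. It was the only 1 of the 10 that was highest in AB5863, at 3.17 per 10000 from 17 UMIs in 5 cells, against 0, 2.13, 2.20 and 1.89 in the other libraries. Summed, the 10 genes came to 13.6 ± 6.49 per 10000 (SD, n = 5), with 22.4 and 17.8 in AB5865 and AB5876 and 6.64 to 12.3 in the others. The spread between libraries was as large as most of the differences between neighbouring genes: the means of Pf4 (1.35 ± 0.920), Dab2 (1.66 ± 0.738), F13a1 (1.88 ± 1.16) and Stab1 (2.18 ± 1.11) lay within 1 SD of one another, as did those of Lyve1 (0.320 ± 0.439), Msr1 (0.493 ± 0.335), Cbr2 (0.571 ± 0.412), Siglec1 (0.633 ± 0.744) and Cd163 (0.758 ± 0.455). All genes were measured in the same libraries, so this spread is not the error of a difference between genes. Cd163 lay above Lyve1 in each library, while Pf4 and Dab2 changed order between libraries.

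**Figure D1:**
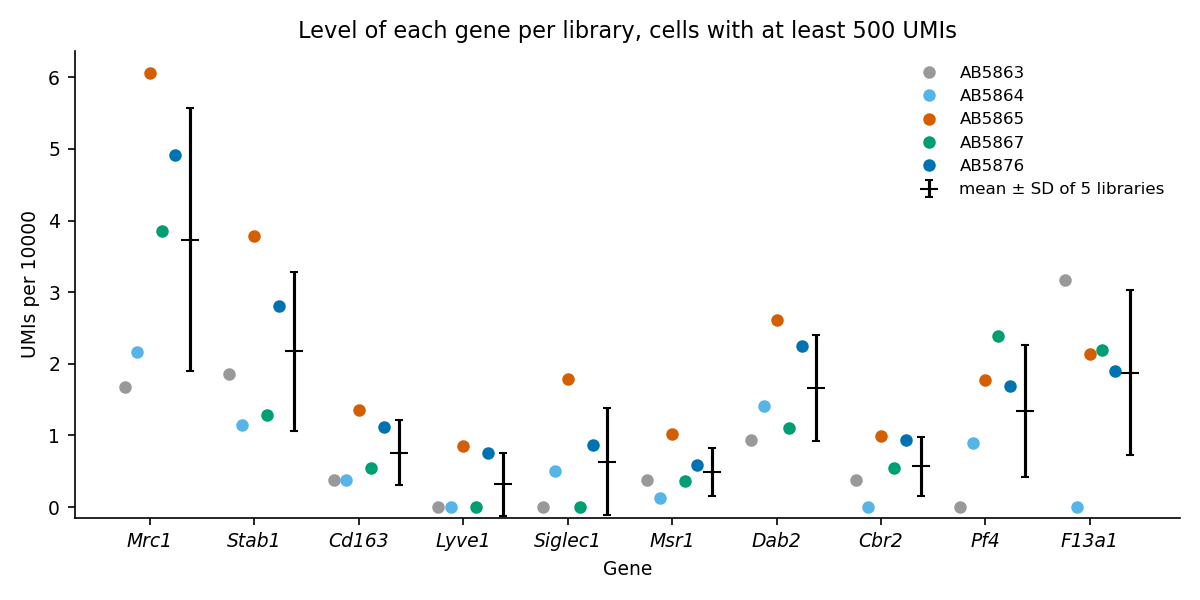
Level of each of the 10 genes (UMIs per 10000, summed over the cells with at least 500 UMIs) in each of the 5 libraries, with the mean and SD. Mrc1 is highest in AB5865 at 6.06, Lyve1 lies at 0 in 3 libraries, and F13a1 is highest in AB5863 at 3.17.

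Most of the UMIs of these genes lay outside the cells with microglia or neutrophil markers. The 10 genes summed to 31.8 UMIs per 10000 in the 207 cells with low MHC class II and neither marker set past its limit (95% exact Poisson interval 29.6 to 34.1, counting error only), and to 16.9 (15.8 to 18.0) in the 345 such cells with high MHC class II. In cells with microglia markers they summed to 8.34 (7.22 to 9.59) where MHC class II was low (198 cells) and 15.9 (12.8 to 19.6) where it was high (45 cells). In the 30 cells with neutrophil markers there were 4 UMIs, 1.64 per 10000. These strata were formed from other genes of the same cells, so their levels are a description.

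The genes differed in how their level divided among these strata. Lyve1 stood at 2.12 per 10000 in the cells outside both marker sets with low MHC class II, 0.336 in those with high MHC class II and 0.127 in the microglia marker cells with low MHC class II. Cbr2 stood at 2.12, 0.637 and 0.169 in the same order, and Stab1 at 6.24, 2.05 and 1.99. Siglec1 (1.28 and 1.24) and Msr1 (1.00 and 0.815) had close levels in the low and high cells outside the marker sets. Dab2 (3.64 and 1.98), Pf4 (2.88 and 1.47), F13a1 (3.08 and 2.11), Mrc1 (7.88 and 5.19) and Cd163 (1.56 and 1.03) lay between these patterns.

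At this depth most cells showed few of the genes. None of the 10 was detected in 374 cells, 1 in 200 and at least 2 in 251, at least 5 in 53, and at most 9, in 2 cells. At least 1 of the 10 was detected in 54.7% of kept cells, and in 36.7% after each cell had been thinned to 500 UMIs. The cells with neutrophil markers, which should lack these genes, give the background: Mrc1 and Stab1 were each detected in 1 of the 30, Pf4 in 2, and the other 7 in none, which allows a share of up to 10% at 3 counts. Their median depth was 668.5 UMIs, against 1015 in all kept cells, and 14 of the 30 came from AB5864, where the 10 genes were lowest, against 3 and 7 from AB5865 and AB5876, so that the background of these deeper libraries rests on few cells. Mrc1 (30.1%), Stab1 (18.5%), Dab2 (17.0%), F13a1 (12.2%) and Pf4 (11.4%) were detected in more kept cells than the background shares of 0 to 6.67%, and after thinning the share of Pf4 in all kept cells was 7.39% against 6.67%, which does not separate it from background. The shares of Cd163, Siglec1, Msr1, Cbr2 and Lyve1, from 3.88 to 9.21%, lay under the 10% that a count of 0 in 30 cells allows, as did those of Dab2 (8%) and F13a1 (5.45%) after thinning. As a level the neutrophil marker cells gave 1.64 per 10000 for the 10 genes together (0.446 to 4.20), below the 18.0 of all kept cells (17.2 to 18.8).

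The 10 genes were found in the same cells more often than their own frequencies give. For each of the 45 pairs, the number of cells with both was set against the number that independence within each library would give. All 45 pairs lay above it, with a median ratio of 2.18 and a range of 1.5 to 3.80; summed over the pairs, with a cell counted once for each pair it held, the number was 1276 against 647 under independence. The highest ratio was that of Cd163 with Lyve1, found together in 14 cells against 3.69, followed by Lyve1 with Cbr2 (10 against 2.72) and Cd163 with Cbr2 (21 against 6.06). Of the 32 cells with Lyve1, 14 also had Cd163 and 14 had Pf4. The lowest was that of Mrc1 with Cd163 (39 against 26.1). The pattern was present in both deep libraries, with 45 of 45 pairs above independence in AB5865 and 43 of 45 in AB5876, and ratios of the sums of 2.00 and 1.93. In AB5863, AB5864 and AB5867 the summed numbers were 7, 8 and 17, too few for single pairs.

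Depth differs between cells, and deeper cells show more of every gene. With the cells of each library also split at their median depth the median ratio was 2.14. With each cell thinned to 500 UMIs 44 of 45 pairs lay above independence (Lyve1 and Siglec1 were together in no thinned cell). The median ratio was then 2.82 over the 42 pairs expected in at least 1 cell. Without the cells with microglia or neutrophil markers the median ratio was 1.85. Pairs of the 10 with the housekeeping gene Actb or the microglia receptor P2ry12, counted the same way, had ratios of 0.970 (Cbr2) to 1.02 with Actb and of 0.769 (F13a1) to 1.08 (Lyve1) with P2ry12.

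With Ly6c2, a marker of circulating classical monocytes chosen after the values were seen, 9 of the 10 genes were found in fewer cells than independence gives, in counts of 11 cells or fewer and with no test. Mrc1 and Ly6c2 were found together in 11 cells against 22.5 under independence, Siglec1 and Ly6c2 in 3 against 6.38, Cbr2 and Ly6c2 in 1 against 4.99, and Lyve1 and Ly6c2 in 0 against 3.01. For F13a1, which classical monocytes also express, it was 10 cells against 9.09, and for Msr1 4 against 4.14. Ccr2, another gene of monocytes, did not repeat this for each gene: with it Mrc1 was found in 68 cells against 67.6, Dab2 in 43 against 38.7, F13a1 in 32 against 28.0, and the other 7 in fewer than independence gives, from 8 against 15.4 for Cbr2 to 23 against 25.9 for Pf4. With Cd209a, a lectin of monocyte-derived dendritic cells, Dab2 was found in 38 cells against 21.6, while F13a1 was found in 9 against 15.4. Monocyte markers summed to 16.6 UMIs per 10000 in cells with F13a1 and 12.3 in those without it, and to 5.82 in cells with Stab1 and 15 in those without it.

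**Figure D2:**
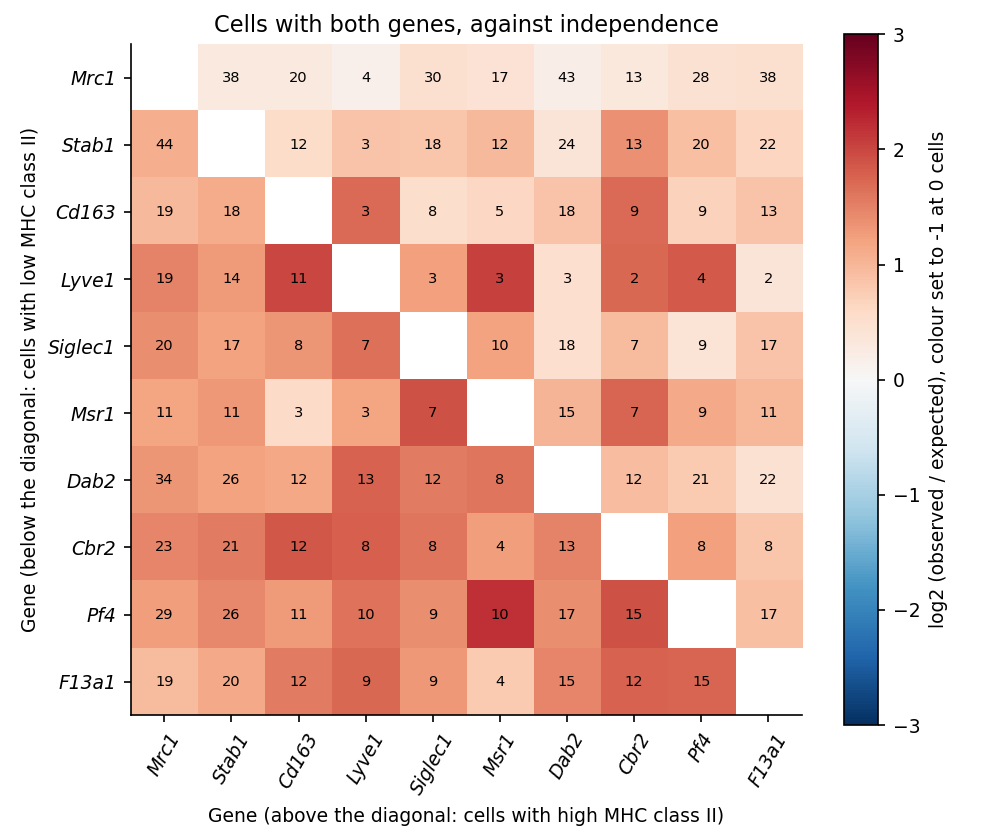
Pairs of the 10 genes detected in the same cell, as log2 of the observed number over that expected within libraries (colour), with the observed number of cells printed; cells with low MHC class II lie below the diagonal and those with high MHC class II above it. All squares lie above 0, with a median ratio of 2.64 in low cells, and of 1.74 in high cells over the 42 pairs expected in at least 1 cell.

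The association was present on both sides of the MHC class II limit, and its size differed by pair. In low cells the 45 pairs had a median ratio of 2.64, with sums of 648 against 250 under independence. In high cells the median ratio was 1.74 over the 42 pairs expected in at least 1 cell, with sums of 628 against 405 over all 45. Mrc1 and Dab2 were found together in 34 low cells against 13.6 and in 43 high cells against 37.7, and Mrc1 and Stab1 in 44 against 20.5 and 38 against 31.0. Cd163 and Cbr2 had close ratios, with 12 against 3.32 in low cells and 9 against 2.79 in high cells. The difference between the classes was not tested. The classes also differed in make-up: 198 of the 435 low cells and 45 of the 390 high cells had microglia markers. The part of this make-up in the ratios was not tested either.

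Over all libraries together, cells with none of the genes were mostly low in MHC class II and cells with 2 or 3 mostly high. Few of the cells with the most genes were high. High cells made up 35.8% of the cells with none of the 10 genes (134 of 374, 95% exact binomial interval 31.0 to 40.9%), 68.1% of those with 2 (81 of 119, 58.9 to 76.3%) and 72.9% of those with 3 (35 of 48, 58.2 to 84.7%). Of the 15 cells with 7 to 9 of the genes, 4 were high, 26.7% (7.79 to 55.1%), among them both cells with 9 genes. The intervals cover counting error only, and these bins were chosen after the values were seen. With 2 genes, high cells were 37 of 45 in AB5865 and 40 of 57 in AB5876. They were 2 of 7 in AB5863, 0 of 2 in AB5864 and 2 of 8 in AB5867, so the high share came from the deeper libraries. From 3 genes to 7 to 9 genes the share went from 73.7 to 37.5% in AB5865 and from 75 to 14.3% in AB5876, while at 5 to 6 genes the libraries were apart, at 38.1 and 64.7%. Median depth was 833.5 UMIs in cells with none, 1379 with 3 and 1441 with 7 to 9. By single gene, high cells made up 25.0% of the cells with Lyve1 (8 of 32, 11.5 to 43.4%) and 42.9% of those with Cbr2, against 60.4 to 63.2% of those with F13a1, Mrc1, Dab2 and Siglec1, and 47.3% of all kept cells.

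**Figure D3:**
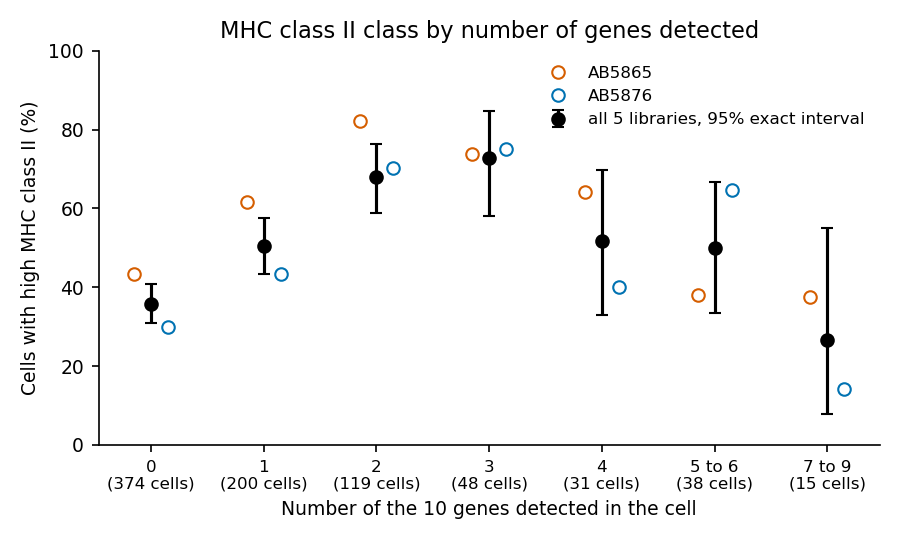
Share of cells with high MHC class II (percent) by the number of the 10 genes detected, for all 5 libraries with 95% exact binomial intervals, and for AB5865 and AB5876 alone as open circles. The share is 35.8% with none, 72.9% with 3 and 26.7% with 7 to 9 genes.

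Over all kept cells the levels of the 10 genes did not pass a test between cells with high and low MHC class II. In such sums, fewer cells with a gene and fewer UMIs per cell cannot be told apart. Sums of UMIs by library and class entered the quasi-likelihood test of edgeR, blocked by library, for all 5 libraries, and p-values were adjusted by the method of Benjamini and Hochberg over 7016 genes. None of the 10 passed an adjusted p of 0.05, when 0.356% of all genes were higher and 0.698% lower in high cells. At an unadjusted p under 0.05 it was 1 of 10, Lyve1, against 7.9% of all genes. The median log2 fold change of the 10 in edgeR was -0.48, beside -0.13 over all genes tested. DESeq2 called 0 of the 5 to which it gave an adjusted p, with 6.18% of the 1439 genes with an adjusted p lower. At an unadjusted p under 0.05 it was 1 of 10, Stab1, against 7.01% of all genes, and the median was -0.84 beside -0.20.

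Lyve1 had the largest difference. It stood at 1.23 and 1.5 per 10000 in the low cells of AB5865 and AB5876 and at 0.619 and 0.104 in the high cells, with 0 in both classes of the other libraries, which gave -2.06 on the log2 scale (edgeR, standard error 1.02, adjusted p = 0.605). Stab1 stood at 2.38, 1.06, 7.40, 1.52 and 2.93 in low cells and 0.993, 1.23, 1.63, 0.659 and 2.71 in high cells, in the order of the libraries. It was lower in high cells in 4 of 5 libraries, with overlapping ranges (log2 fold change -0.99, standard error 0.52, adjusted p = 0.659). Mrc1 stood at 0.894, 1.59, 5.97, 4.06 and 4.96 in low cells and 2.98, 2.70, 6.12, 3.30 and 4.87 in high cells, without a common direction (0.17, standard error 0.40, adjusted p = 0.999). F13a1 was lower in the high cells of AB5863 and AB5867, where it was at 0, against 5.06 and 3.05 in low cells, and higher in those of AB5865 (2.21 against 2.01) and AB5876 (2.54 against 1.14). The log2 fold changes of the other 6 lay between -0.94 (Cbr2) and 0.06 (Siglec1).

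The result differed with the libraries used. With AB5865 and AB5876 alone, a choice made after seeing the data, Lyve1 (-1.99, standard error 0.50, adjusted p = 0.00743) and Stab1 (-1.04, standard error 0.29, adjusted p = 0.0203) were lower in high cells, when 2.82% of all genes were, and the other 8 did not pass. Cell types also moved with the classes. Of the 10 microglia markers, 7 were lower in high cells, the neutrophil genes S100a8 and S100a9 fell by 3.72 and 3.63 on the log2 scale, and Cd209a and Ccr2, the receptor of recruited monocytes, rose by 3.36 and 2.73 (edgeR). Without the cells with microglia or neutrophil markers, all 10 genes had negative log2 fold changes, with a median of -1.14. None of them passed in edgeR, when 0.197% of all genes were lower. An unadjusted p under 0.05 was found for 5, Stab1, Lyve1, Cbr2, Pf4 and F13a1, all lower, against 2.46% of all genes.

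Among cells that carried the genes, 4 of the 10 were lower where MHC class II was high. For each gene, cells with at least 2 UMIs of the other 9 were taken as carriers, so that the gene did not choose its own cells, and those with high and low MHC class II were compared. AB5865 and AB5876 held at least 5 carriers of each class, 131 to 174 high and 78 to 91 low depending on the gene. All 10 log2 fold changes were negative, and 4 passed an adjusted p of 0.05 in edgeR: Stab1, Lyve1, Dab2 and Cbr2. In the same fits 0.673, 0.754, 0.712 and 0.812% of all genes were lower in high carriers. With 2 libraries each gene has 1 residual degree of freedom, and the tests lean on the spread shared between genes.

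Stab1 stood at 20.6 and 5.94 UMIs per 10000 in the low carriers of AB5865 and AB5876 and at 2.78 and 3.40 in the high carriers. It was lower in both libraries, to 0.135 of the low level in AB5865 and 0.572 in AB5876 (log2 fold change -1.82, standard error 0.28, adjusted p = 2.60e-07). Lyve1 stood at 2.85 and 3.69 in low and 1.19 and 0.148 in high carriers, the last from 3 UMIs in 95 cells (log2 fold change -2.62, standard error 0.51, adjusted p = 1.08e-04). Both genes fell in each library, but by amounts that differed between the libraries by over 4 times. On the log2 scale the ratios in AB5865 and AB5876 were -2.89 and -0.81 for Stab1 and -1.26 and -4.64 for Lyve1. These lie further apart than the standard errors, so the adjusted p-values of both genes do not measure this spread.

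Dab2 stood at 8.74 and 4.97 in low and 3.57 and 2.20 in high carriers (log2 fold change -1.26, standard error 0.32, adjusted p = 0.0200). Cbr2 stood at 3.68 and 3.17 in low and 1.20 and 0.946 in high carriers (-1.67, standard error 0.46, adjusted p = 0.0226). These genes, the adaptor and the reductase, kept close ratios in the 2 libraries, 0.409 and 0.443 for Dab2 and 0.326 and 0.299 for Cbr2.

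The other 6 genes did not pass. Mrc1 stood at 16.5 and 13.3 in low and 9.03 and 5.27 in high carriers (-1.15, standard error 0.26, adjusted p = 0.0614, with 0.102% of genes lower). Cd163 (-0.96, adjusted p = 0.35, 0.587% of genes lower) and Pf4 (-0.95, adjusted p = 0.178, 0.662%) were at 0.441 to 0.615 of the low level in each library. Siglec1 (-0.17, adjusted p = 0.962, 0.93%), F13a1 (-0.31, adjusted p = 0.863, 0.706%) and Msr1 (-0.55, adjusted p = 0.787, 0.109%) had the smallest differences. For Siglec1 the levels were 4.0 and 1.37 in low and 3.45 and 1.29 in high carriers, and its standard error of 0.43 leaves room for a change of either sign.

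**Figure D4:**
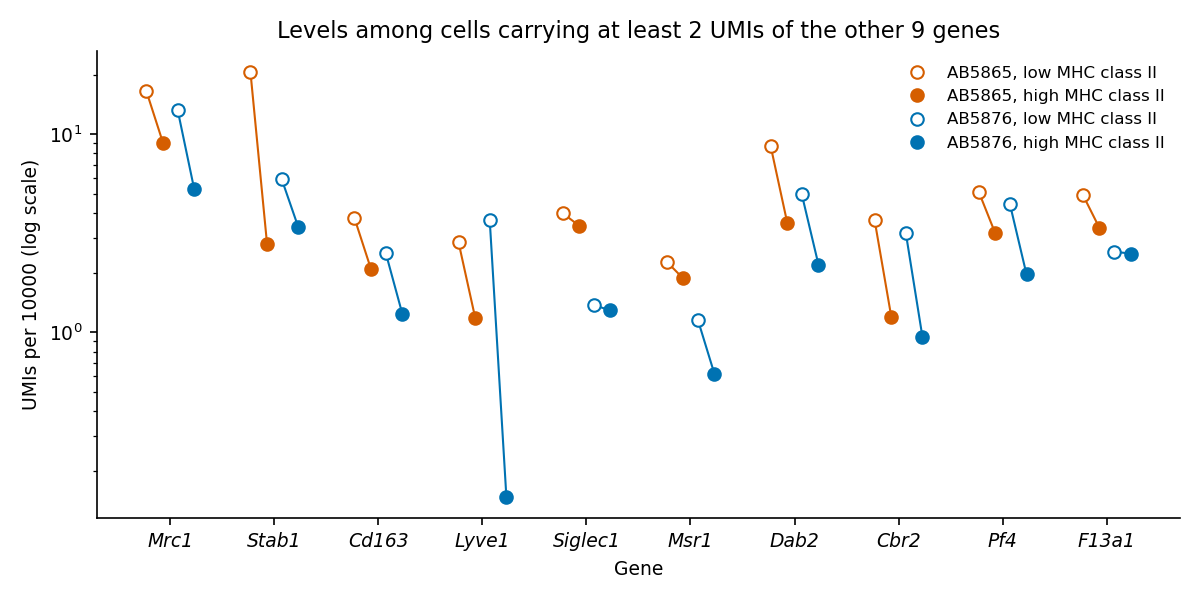
Level of each gene (UMIs per 10000, log scale) among cells carrying at least 2 UMIs of the other 9 genes, with low (open) and high (filled) MHC class II, in AB5865 and AB5876. Each gene is lower in high carriers in both libraries, from 0.0402 of the low level for Lyve1 in AB5876 to 0.979 for F13a1 in AB5876.

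High and low carriers were not matched in level. Over carriers of all libraries, the other 9 genes that chose them summed to 48.7 to 52.1 UMIs per 10000 in low carriers and 24.8 to 29.1 in high carriers, depending on the gene left out. For Stab1 they were at 48.9 and 26.2, and for Dab2 at 51.5 and 29.1. High carriers were also deeper cells, with medians of 1265.5 to 1418.5 UMIs against 1035 to 1072 in low carriers over the 10 choices, so that 2 UMIs are a smaller part of a high carrier, and the part of depth and of the general level in the differences was not tested. With at least 3 UMIs of the other genes Stab1 alone passed (adjusted p = 0.00337, with 0.13% of genes lower), and at a minimum of 1000 UMIs per cell again Stab1 alone (adjusted p = 1.64e-05, 0.571%). With the MHC class II limit at 300, Stab1, Cd163, Lyve1 and Dab2 passed, in fits where 0.351, 1.43, 1.29 and 0.898% of all genes were lower, and Cbr2 did not (adjusted p = 0.0999).

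The make-up of the 10 genes, over all kept cells and not carriers alone, does not refer to total depth. Of the 996 UMIs of the 10 genes in low cells 24.0% were Mrc1, 20.5% Stab1, 12.4% Dab2, 8.84% F13a1, 5.62% Lyve1 and 4.52% Siglec1. Of the 1043 in high cells 30.7% were Mrc1, 12.3% Stab1, 12.1% Dab2, 12.5% F13a1, 1.82% Lyve1 and 7.57% Siglec1. Dab2, lower in high carriers, thus had close shares here. In AB5865 and AB5876 the shares of Stab1 were 26.6 and 16.1% in low and 8.50 and 15.5% in high cells, so that its lower share came from AB5865. Those of Lyve1 were 4.43 and 8.26% in low and 3.24 and 0.598% in high cells, mainly a difference of AB5876. F13a1 (7.23 and 6.25% against 11.5 and 14.5%) and Siglec1 (6.29 and 3.13% against 9.51 and 6.37%) had the larger share in high cells in both libraries.

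Outside the 10, no gene passed as higher in carriers over 4 libraries, and border macrophage genes did in the 2 deeper ones. Cells with at least 2 of the 10 genes were compared with cells with none in the same way, in the 4 libraries with at least 5 cells of each, 248 against 307 cells and 5556 genes. In edgeR 0 genes were higher (0%; 55, or 0.99%, at an unadjusted p under 0.05) and 6 lower (0.108%), and DESeq2 called 0 higher (0%) and 1 lower. The 6 included both genes of the neutrophil list, S100a8 and S100a9. Of 29 other genes known from border macrophages 20 were tested: all 20 had positive log2 fold changes, with a median of 1.52 beside -0.12 over all genes (0.08 under the scaling of DESeq2), 10 had an unadjusted p under 0.05, and none passed in edgeR or DESeq2. With cells of at least 3 of the genes, which only AB5865 and AB5876 held in number (129 against 211 cells), 42 genes were higher (1.06%), and 16 of the 19 tested border macrophage genes were among them. With at least 2 of the genes in these libraries alone, chosen after seeing the data, it was 11 of 20, with 0.391% of all genes higher. The list of border macrophage genes was drawn up with earlier results of these data known, so these counts are a description.

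The lectin Cd209f stood at 1.70 and 0.994 UMIs per 10000 in carriers of at least 2 genes in AB5865 and AB5876, and at 0.165 and 0 in cells with none. For cells with at least 3 of the genes its log2 fold change was 4.87 (standard error 0.74). The chemokine gene Ccl8 stood at 5.53 and 2.29 against 0.165 and 0.260, with a log2 fold change of 4.64 (standard error 0.49) for at least 3 genes. Vcam1, an adhesion molecule, stood at 3.83 and 1.80 against 0.331 and 0.260 (3.84, standard error 0.50), and the folate receptor gene Folr2 at 1.76 and 0.879 against 0.331 and 0 (3.69, standard error 0.71). All of these passed in edgeR for at least 3 genes. In AB5863, Ccl8, Vcam1 and Folr2 had UMIs only in cells with none of the 10, at 0.837, 0.558 and 2.23 per 10000, from few cells. Maf, a transcription factor of tissue macrophages, was higher in carriers in each of the 4 libraries, at 12.6, 8.21, 6.56 and 6.31 against 2.51, 1.98, 3.09 and 1.95, by 1.59 on the log2 scale for at least 2 genes (edgeR, standard error 0.50, adjusted p = 0.572) and 2.40 (standard error 0.29) for at least 3. Apoe, the lipid carrier apolipoprotein E, was higher in carriers in 3 of the 4 libraries.

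**Figure D5:**
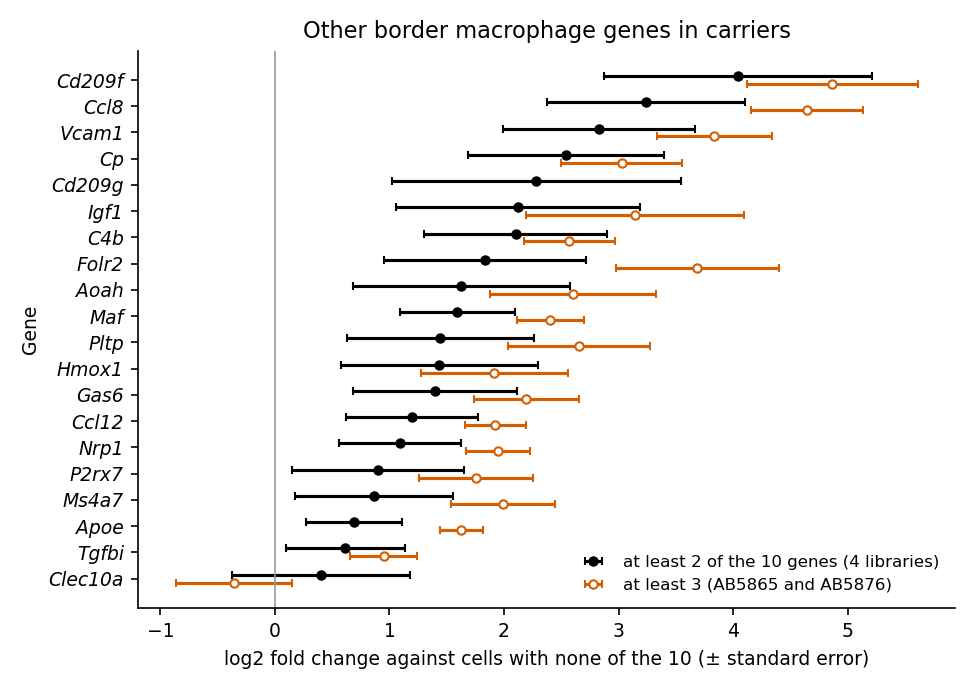
Log2 fold change, with standard errors, of the 20 tested border macrophage genes in cells with at least 2 of the 10 genes (filled, 4 libraries) and at least 3 (open, AB5865 and AB5876) against cells with none, from edgeR. All 20 filled points lie above 0, from 0.40 for Clec10a to 4.04 for Cd209f, and Clec10a is the only open point below 0.

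Few genes of the wider uptake machinery passed. Of 21 other scavenger receptors 11 were tested, with a median log2 fold change of -0.12 in carriers of at least 2 genes, and none passed in edgeR or DESeq2; 1, Cd36, had an unadjusted p under 0.05 in edgeR. With at least 3 genes Cd36, which takes up fatty acids and oxidized lipoproteins, and Axl, a receptor for dying cells, were higher (1.94 and 1.13, adjusted p = 0.0314 and 0.00764). Of 19 genes of clathrin-dependent uptake 15 were tested, with a median of 0.02 and none past the threshold in edgeR or DESeq2, and 1 at an unadjusted p under 0.05; with at least 3 genes Cltc, the clathrin heavy chain, was higher (1.26, adjusted p = 0.00188). Between cells with high and low MHC class II, 0 of 11 tested scavenger receptors, 0 of 16 clathrin genes and 0 of 23 border macrophage genes passed in edgeR, with 4, 0 and 4 at an unadjusted p under 0.05. DESeq2 called 1 of these genes, Mertk, a receptor for dying cells, lower in high cells, where edgeR gave -1.40 (adjusted p = 0.0556). Of the 8 other genes of the MHC class II pathway, H2-DMa and H2-DMb1, which load peptides, were higher in high cells (1.77 and 2.06). Ctss, from the same list, was lower in the high cells of each library (-0.56, edgeR adjusted p = 0.320). DESeq2 called Ctss lower (adjusted p = 0.00275). With AB5865 and AB5876 alone, chosen after seeing the data, more passed in edgeR. Of 11 scavenger receptors Axl, Cd36 and Cxcl16 were higher in high cells and Lrp1 and Mertk lower. Of 22 border macrophage genes Ccl8, Ccl12, Clec10a and Tgfbi were higher and Cd209f lower, and of 16 clathrin genes Numb was lower. Of the 8 pathway genes 5 were higher and Ctss lower. Among all 6302 genes of that fit 267 were higher and 178 lower.

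The genes whose level followed the 10 most closely over single cells were, for 9 of the first 10, on the list of border macrophage genes. That list was drawn up with earlier results of these data known, so the overlap is not independent support. Over 825 cells and 5712 genes, with values centred within library, the correlation with the summed 10 was highest for Clptm1 (Pearson's r = 0.42), Apoe (0.42), C4b (0.35), Maf (0.35), Vcam1 (0.34), Cd209f (0.34), Ccl8 (0.32), Cp (0.27), Nrp1 (0.26) and Ccl12 (0.25). Clptm1 lies close to Apoe in the genome, and its counts are uncertain because some may come from Apoe. Cells of a library share depth and preparation, and the values are a description. Within the 10, r with the sum of the other 9 was 0.20 for Msr1 and 0.47 for Mrc1 at the ends of the range, and 0.28 and 0.51 in AB5865 and 0.0918 and 0.53 in AB5876.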

How the data were processed

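Single cells of 5 libraries were profiled by MARS-seq. For each well the authors had mapped and filtered the reads to UMIs, and they deposited these as raw counts, not normalized. The build mm10 and bcl2fastq 2.15.0.4 come from the submitters' processing notes; the mapping program was not given in the sources used here. Wells with 1 cell and at least 500 UMIs outside ERCC spike-ins were kept, with no doublet caller, since single cells were sorted. For tests, counts were summed per library and class (at least 5 cells each), genes with at least 20 UMIs in these sums were tested, and edgeR 4.0.16 (TMM, quasi-likelihood, robust) was run in R 4.3.3 blocked by library, since the cells of either class shared a plate; DESeq2 1.42.0 was an alternative. The edgeR fit was tested on simulated counts for high against low cells over 5 libraries. The fits of carriers, some with 2 libraries, were not simulated. The genes, the lists and the rules for named genes (the 10 genes, list members past the threshold, the largest changes seen in every library and the 10 best correlated genes) were chosen with earlier results of these data known; Ly6c2, Ccr2, Actb, P2ry12 and the genes named without passing were chosen after their values were seen. Depth per library was 128201 to 549824 UMIs. Positions are those of GENCODE for GRCm38.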

Additional observations from a re-analysis of the deposited data

Results flagged for a closer look

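In groups of 5 libraries, the distance of the highest or lowest library from its neighbour was compared with the whole range, for 33 sets of levels (the 10 genes and their sum, in all, low and high cells); chance alone would mark about 1 in 20. Pf4 was at 0 UMIs per 10000 in the low MHC class II cells of AB5863, while the other libraries lay between 1.78 and 1.95. Lyve1 was at 0.619 in the high MHC class II cells of AB5865, while the next library, AB5876, lay at 0.104.

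Wells with a cell but fewer than 500 UMIs, which entered no comparison, also carried the genes, at 0.544 UMIs of the 10 per well (585 UMIs in 1075 wells) against 0.1 per well in empty wells (2 UMIs in 20 wells). Relative to all UMIs the 10 genes summed were higher in these wells than in the kept cells of each library, at 17.7, 12.6, 46.4, 22.0 and 45.9 per 10000 in AB5863, AB5864, AB5865, AB5867 and AB5876 against 8.75, 6.64, 22.4, 12.3 and 17.8; the difference was not tested. On this scale the 2 UMIs of the empty wells, of 320 UMIs in all, stand at 62.5 per 10000 (95% exact Poisson interval 7.57 to 225.8), above both. Siglec1 was lower in the shallow wells of AB5864, AB5865 and AB5876, at 0.148, 1.15 and 0.612 against 0.511, 1.79 and 0.862, and so were Cd163 and Dab2 in AB5864, Stab1 in AB5863 and F13a1 in AB5867.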

How the results depend on the processing

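The direction of all 10 genes among carriers was negative in every alternative run, and the co-detection results changed by less than the limits used: the ratio of summed pairs was 1.97, with 1.96 within classes of depth, 2.52 after thinning and 1.77 without marker cells. Leaving out 1 of the 2 libraries of the carrier comparison leaves no test, and the log2 ratios of the remaining library are those in the text.

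Between high and low MHC class II cells, 25 genes were higher and 49 lower; the counts were 57 and 89 with DESeq2, 91 and 130 at a minimum of 300 UMIs, 12 and 11 without neutrophil and microglia marker cells, and 267 and 178 in AB5865 and AB5876 alone. They were 84 higher at 1000 UMIs, which also leaves out AB5863 and AB5867, and 42 and 15 higher with the limit at 75 and 300. Without the replicate block they were 14 and 29, and the block changed the call of no gene of the 10. Leaving out a library gave 9 to 84 higher and 24 to 79 lower: 47 higher without AB5863, 9 and 24 without AB5865, 84 and 79 without AB5867, and 10 and 32 without AB5876. Genes of the 10 called lower rose from 0 to 2 only in AB5865 and AB5876 alone; genes called lower among carriers were 4, and 1 with at least 3 UMIs and at 1000 UMIs. Between carriers and cells with none, 0 higher and 6 lower became 2 and 10 at 300 UMIs, 21 and 24 at 1000, 42 and 43 with at least 3 genes, 4 and 0 without marker cells, 20 and 23 in AB5865 and AB5876, and 6 higher after thinning; 3 were lower without the low-count filter, 1 with DESeq2, 1 without the block and 0 without neutrophil marker cells. Some of these settings also change the libraries with enough cells: 300 UMIs adds AB5864, 1000 UMIs and at least 3 genes leave AB5865 and AB5876, thinning drops AB5863, and leaving out marker cells drops AB5867. Leaving out a library gave 0 to 7 higher and 0 to 10 lower: without AB5865 or AB5876 0 passed in either direction (8 and 4 higher at an unadjusted p under 0.05), and without AB5867 7 and 10 did. Border macrophage genes higher were 0, and 1 at 300 UMIs, 10 at 1000, 16 with at least 3 genes, 11 in AB5865 and AB5876, 2 without marker cells, 5 after thinning, and 0 to 5 with a library left out.

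Directions that turned concerned high against low cells and no called value. Without marker cells Mrc1 was -0.59 and Siglec1 -0.67; Siglec1 was also -0.27 with DESeq2, -0.45 at the limit of 300, and -1.06 without AB5876 to 0.57 without AB5864 (-0.49 without AB5865). At the limit of 75, Cd163 was 0.13, Pf4 0.25, F13a1 0.20 and Msr1 1.11. Msr1 was 0.17 at 1000 UMIs, 0.42 in AB5865 and AB5876, and -1.31 without AB5876 to 0.0745 without AB5863 (0.02 without AB5867). F13a1 was 0.50 and 0.73 under the first 2 of these, and -2.02 without AB5876 to 0.17 without AB5863. The cause was not tested. The summed level was 11.4 to 15.3 per 10000 with a library left out. Lyve1, Siglec1, Cbr2, Pf4 and F13a1 were each at 0 in at least 1 of AB5863, AB5864 and AB5867, where a gene at 0 may be present at up to 0.383 to 0.559 per 10000.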
